A study of Mus musculus with 9 samples.

Results

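The gel-forming mucins and the goblet cell program were followed through 10 genes chosen by symbol: Muc5ac, Muc5b, Spdef, Foxa3, Agr2, Ern2, Creb3l1, Gcnt3, Tff2 and Itln1. All 10 were found among the 21983 gene symbols of the count table, and all 10 passed the filter on low counts that left 14739 genes for testing. RNA was taken from lungs of inbred BALB/c mice, with 3 libraries in each of 3 groups. BSYQF mice had a chronic asthma model and were given Bu-Shen-Yi-Qi formula, a herbal mixture, by mouth at 20 g of raw herbs per kg from day 14, for 6 weeks. Asthma mice had the same model with oral saline, and control mice were normal animals given oral saline. The labels give no sensitising agent, age or sex, and do not say whether animals were pooled. Libraries are labelled as replicates with no word on whether each is its own mouse, so the p-values reflect spread among libraries that may be partly technical.

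Airway mucus is a gel of very large secreted glycoproteins, of which Muc5ac and Muc5b are the gel-forming members made in the lung. Mouse airways hold few goblet cells at rest, and Muc5b is made there mainly by club and gland cells, whereas type 2 cytokines such as IL-13 drive goblet cells that store Muc5ac. The transcription factors Spdef and Foxa3 act in that conversion. Mucin chains are folded and crosslinked in the endoplasmic reticulum, where Agr2 and Ern2 act, and are then decorated with sugars in the Golgi by enzymes such as Gcnt3.

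Each library held 16286385 to 22819199 counts. Levels are given in CPM, the usual unit of counts scaled to library size, after TMM normalization, and 3 counts correspond to 0.134 to 0.202 CPM. The 10 genes together took 0.0241 to 0.0733% of a library's counts in BSYQF lungs, 0.0248 to 0.0805% in asthma lungs and 0.00569 to 0.0102% in control lungs. Muc5b alone made up 51.2 to 64.7% of these counts in any library. Lung identity was plain in every library, with 6 alveolar type 2 cell markers summing to 21640 CPM or more and 8 club cell markers to 30421 CPM or more. On the first principal component of all tested genes, which held 51.6% of the variance, asthma replicate 3 and BSYQF replicates 2 and 3 lay between the controls and the other libraries of the model. Asthma replicate 2 and BSYQF replicate 1 had the largest mitochondrial mt-Co1 shares, 4.43 and 2.82% of counts, against 0.93 to 1.96% in the other libraries.

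The comparison of asthma with control lungs asks what the model changes in this program. In asthma lungs 8 of the 10 genes rose at an adjusted p under 0.05, with log2 fold changes from 2.39 for Spdef to 5.59 for Gcnt3. Over all genes tested 12.7% were called, 8.23% as higher and 4.45% as lower. All 10 genes had an unadjusted p under 0.05, as did 34.1% of all genes. Itln1 and Creb3l1 did not pass. The 3 asthma libraries lay above the 3 control libraries for all 10 genes, as they did for 22% of all genes tested. The median log2 fold change of the 10 genes was 3.21, beside 0.02 over all genes. The 10 genes were chosen with earlier results of these data known, so their contrast with all genes is no independent test. All tests are edgeR quasi-likelihood tests with Benjamini-Hochberg adjustment over all genes. In bulk tissue, more goblet cells and more RNA per cell cannot be told apart.

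**Figure D1:**
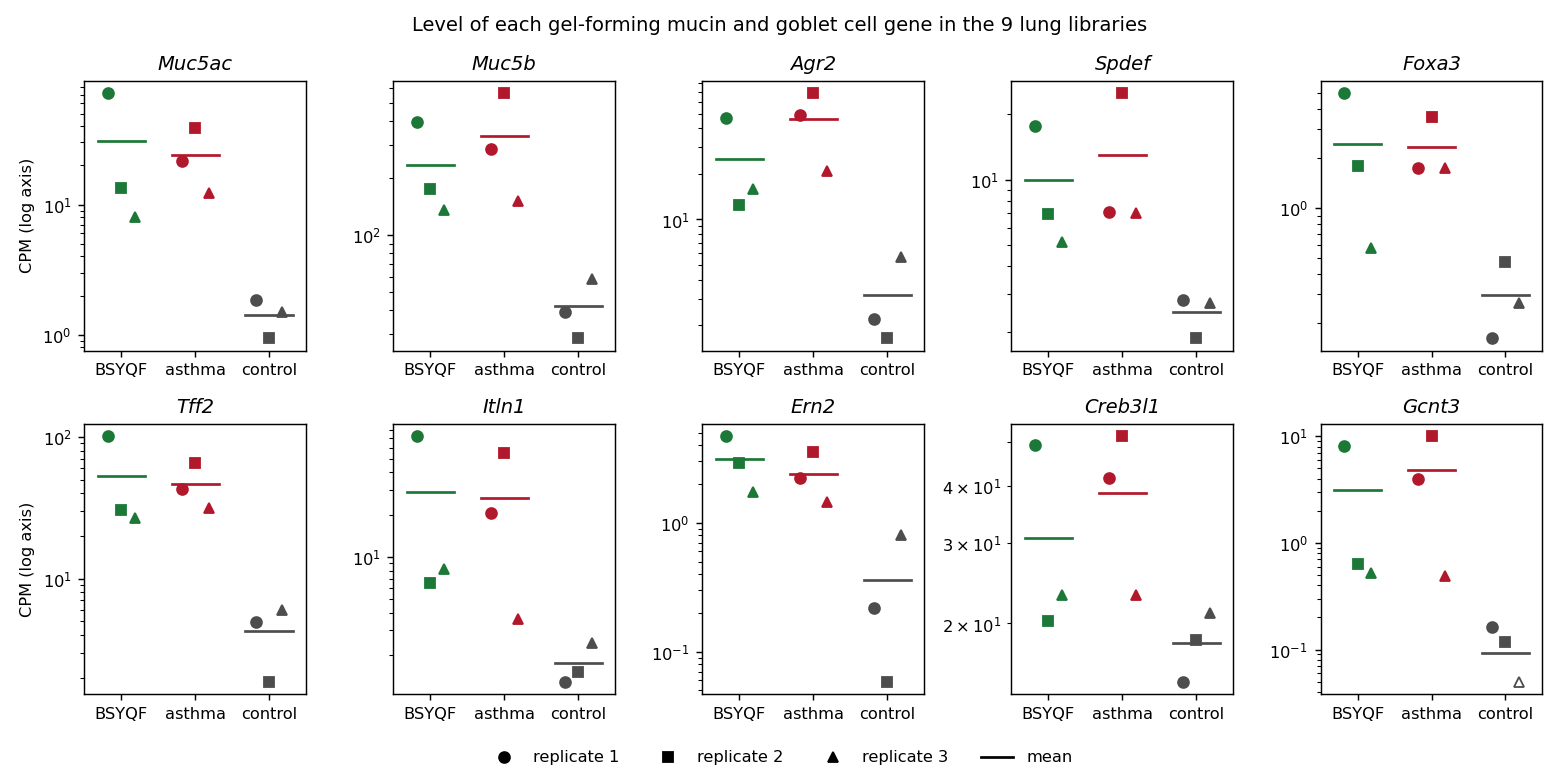
Level of each of the 10 genes in CPM (log axis) in BSYQF, asthma and control libraries. Each point is 1 library, its shape gives the replicate number, the bar is the group mean, and the open triangle for Gcnt3 marks a control library listed at 0 and drawn at 0.05 CPM. BSYQF replicate 1 and asthma replicate 2 were the 2 highest libraries for 9 of the 10 genes.

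Muc5ac maps to chr7:141788972-141819231 (plus strand) in mm10, and Muc5b follows on the same strand at chr7:141839070-141873084, with 19838 bases between them. Both are annotated as protein coding. Muc5ac had 71.6, 13.4 and 8.01 CPM in BSYQF replicates 1, 2 and 3, 21.7, 38.5 and 12.2 CPM in asthma replicates 1, 2 and 3, and 1.84, 0.936 and 1.49 CPM in control replicates 1, 2 and 3. Each library of the model stood well above the highest control, and BSYQF replicate 1 was far above the rest. Muc5ac rose in asthma with a log2 fold change of 4.07 ± 0.87 (SE, adjusted p = 0.0243, n = 3 each, edgeR). The control counts behind it were 34, 16 and 28.

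Muc5b was the most counted of the 10 genes. It had 395, 174 and 136 CPM in BSYQF replicates 1, 2 and 3, 286, 561 and 151.9 CPM in asthma replicates 1, 2 and 3, and 39.0, 28.4 and 58.3 CPM in control replicates 1, 2 and 3. The lowest library of the model was more than double the highest control, and the asthma libraries themselves differed 3.69-fold. Its log2 fold change in asthma was 2.99 ± 0.55 (SE, adjusted p = 0.0149, edgeR).

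Relative to Muc5b, Muc5ac held a larger share in every library of the model than in any control. Per base of annotated exon (10752 for Muc5ac and 14964 for Muc5b), Muc5ac stood at 25.2, 10.7 and 8.19% of Muc5b in BSYQF replicates 1, 2 and 3. The share was 10.5, 9.56 and 11.2% in asthma replicates 1, 2 and 3 and 6.55, 4.59 and 3.56% in control replicates 1, 2 and 3. The asthma libraries were close together on this ratio although their mucin levels were not. The mean log2 ratio of counts was -3.74 ± 0.11 in asthma and -4.84 ± 0.44 in control (SD, n = 3 each), a difference of 1.10 with a two-sided exact permutation p = 0.1, the smallest that 3 against 3 libraries allow. Between BSYQF (-3.41 ± 0.85) and control the difference was 1.43, also at the smallest exact permutation p = 0.1. BSYQF minus asthma was 0.33 (exact permutation p = 0.8), and it turned to -0.15 without BSYQF replicate 1. Reads from the repeats inside mucin genes can map to several places, and the labels do not say how the authors counted such reads, so the percentages carry that limit while differences between libraries share it.

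**Figure D2:**
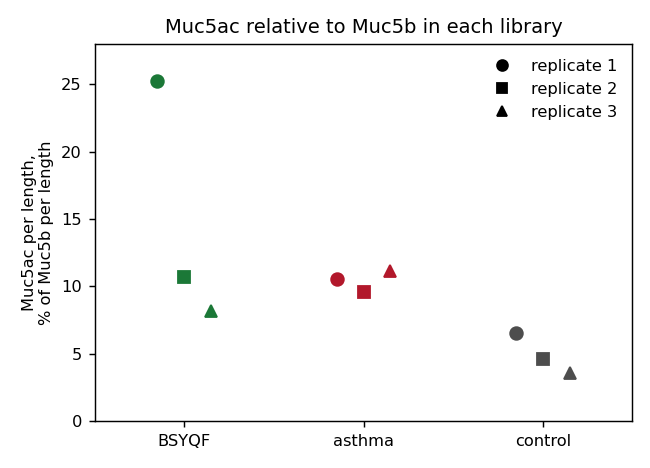
Muc5ac level per exon length as a percentage of the Muc5b level per exon length, 1 point per library, in BSYQF, asthma and control lungs. The controls lie between 3.56 and 6.55%, the asthma libraries between 9.56 and 11.2%, and BSYQF replicate 1 at 25.2%.

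Spdef, an Ets transcription factor needed for goblet cell formation in mouse airways, maps to chr17:27714352-27728955 (minus strand). It had 17.6, 6.97 and 5.15 CPM in BSYQF replicates 1, 2 and 3, 7.07, 24.9 and 7.04 CPM in asthma replicates 1, 2 and 3, and 2.81, 1.87 and 2.71 CPM in control replicates 1, 2 and 3. Asthma replicates 1 and 3 were nearly equal, and replicate 2 stood 3.53-fold above the lowest asthma library. Spdef rose in asthma by 2.39 ± 0.59 on the log2 scale (SE, adjusted p = 0.0311, edgeR).

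Foxa3, a forkhead factor that can drive mucous change when overexpressed in mouse airways, maps to chr7:19013284-19023538 (minus strand). It was scarce, with 82, 31 and 11 counts in BSYQF replicates 1, 2 and 3, 31, 53 and 39 in asthma replicates 1, 2 and 3, and 3, 8 and 5 in control replicates 1, 2 and 3. These are 4.97, 1.80 and 0.572 CPM in BSYQF, 1.75, 3.56 and 1.75 CPM in asthma and 0.162, 0.468 and 0.266 CPM in control. BSYQF replicate 3 was only just above the highest control, and no model library went below it. Foxa3 rose in asthma by 2.95 ± 0.80 (log2, SE, adjusted p = 0.0406, edgeR).

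The promoter windows of these 2 factors are shown because both genes moved with the mucins and because each factor's family has a known core motif. The windows run from 250 bases before to 50 bases after the start in RefSeq on GRCm38.p6, minus strand, read 5′ to 3′, at chr17:27728902-27729201 for Spdef and chr7:19023490-19023789 for Foxa3. Capitals mark matches to the motifs searched.
Spdef: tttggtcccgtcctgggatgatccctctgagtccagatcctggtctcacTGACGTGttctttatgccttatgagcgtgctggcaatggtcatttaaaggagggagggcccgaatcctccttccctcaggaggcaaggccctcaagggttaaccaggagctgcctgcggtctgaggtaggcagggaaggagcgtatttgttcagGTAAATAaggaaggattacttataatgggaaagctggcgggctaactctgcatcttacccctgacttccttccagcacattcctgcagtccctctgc
Foxa3: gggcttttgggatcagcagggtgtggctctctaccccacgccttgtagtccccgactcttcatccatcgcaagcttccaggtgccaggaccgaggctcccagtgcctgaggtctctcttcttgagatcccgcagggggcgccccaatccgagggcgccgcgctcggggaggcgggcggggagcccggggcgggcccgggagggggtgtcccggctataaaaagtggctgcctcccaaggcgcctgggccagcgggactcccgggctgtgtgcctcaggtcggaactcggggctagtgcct
The search on both strands covered the forkhead cores TGTTTAC and TATTTAC, the Spdef core CCGGAT, the STAT6 palindrome (TTC and GAA with any 4 bases between them), the unfolded protein response element TGACGTG and the E-box CACGTG. Promoter windows were matched for 4 of the 10 genes (Spdef, Foxa3, Agr2 and Itln1), and matches were found in the Spdef window. There TGACGTG lies 201 to 195 bases before the start (chr17:27729146-27729152), and TATTTAC lies on the opposite strand 47 to 41 bases before it (chr17:27728992-27728998), with no overlap between them. Of 32544 promoter windows of that length, 2.02% hold TGACGTG, 3.04% TATTTAC, 3.66% TGTTTAC, 6.08% CCGGAT, 6.98% the STAT6 palindrome and 7.17% CACGTG. A match describes letters and not a bound site.

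Agr2, a protein disulfide isomerase of the endoplasmic reticulum that mucins need for folding, maps to chr12:35992907-36004087 (plus strand). It had 46.8, 12.5 and 15.8 CPM in BSYQF replicates 1, 2 and 3, 49.3, 68.2 and 20.9 CPM in asthma replicates 1, 2 and 3, and 2.22, 1.64 and 5.64 CPM in control replicates 1, 2 and 3. BSYQF replicates 2 and 3 were lower than all 3 asthma libraries, while BSYQF replicate 1 lay among them. Agr2 rose in asthma by 3.85 ± 0.69 (log2, SE, adjusted p = 0.0132, edgeR).

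Ern2 encodes IRE1 beta, a stress sensor of the endoplasmic reticulum found in mucus-making epithelium, and maps to chr7:122169893-122186207 (minus strand). Its counts were 77, 50 and 33 in BSYQF replicates 1, 2 and 3, 39, 53 and 32 in asthma replicates 1, 2 and 3, and 4, 1 and 15 in control replicates 1, 2 and 3. The 2 model groups covered nearly the same range, at 1.72 to 4.66 CPM in BSYQF and 1.43 to 3.56 CPM in asthma, against 0.0585 to 0.798 CPM in control. Ern2 rose in asthma by 2.70 ± 0.74 (log2, SE, adjusted p = 0.0422, edgeR), a value that rests on few control counts. Ern1, the IRE1 form of most tissues, is named here after its values were seen and had a log2 fold change of -0.29 ± 0.18 (SE, adjusted p = 0.271, edgeR).

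Creb3l1, a membrane-bound transcription factor of secretory cells, maps to chr2:91982328-92024502 (minus strand). It was the gene of the 10 with the smallest difference. It had 49.3, 20.2 and 23.1 CPM in BSYQF replicates 1, 2 and 3, 41.6, 51.4 and 23.1 CPM in asthma replicates 1, 2 and 3, and 14.9, 18.4 and 21.1 CPM in control replicates 1, 2 and 3. Asthma replicate 3 was only just above the highest control, and BSYQF replicate 2 lay inside the control range. Its log2 fold change in asthma was 1.09 ± 0.36 (SE, adjusted p = 0.0653, edgeR), which did not pass.

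Gcnt3, a Golgi enzyme that branches the sugar chains of mucins, maps to chr9:70031496-70038088 (minus strand). Its counts were 135, 11 and 10 in BSYQF replicates 1, 2 and 3, 70, 148 and 11 in asthma replicates 1, 2 and 3, and 3, 2 and 0 in control replicates 1, 2 and 3. The model libraries fell into 3 with many counts and 3 with few, and the split ran through both groups. Gcnt3 rose in asthma by 5.59 ± 1.56 (log2, SE, adjusted p = 0.0451, edgeR). With 5 control counts in all, the ratio of summed counts was 45.4, with a 95% counting interval of 19.2 to 141 that covers counting error only.

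Tff2, a trefoil peptide secreted with mucins, maps to chr17:31141049-31144282 (minus strand). It had 100.6, 30.3 and 26.8 CPM in BSYQF replicates 1, 2 and 3, 42.8, 65.1 and 31.5 CPM in asthma replicates 1, 2 and 3, and 4.97, 1.87 and 6.01 CPM in control replicates 1, 2 and 3. The lowest model library was over 4 times the highest control. Tff2 rose in asthma by 3.43 ± 0.61 (log2, SE, adjusted p = 0.0129, edgeR), the smallest adjusted p of the 10 genes.

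Itln1, an intelectin that binds microbial sugars, maps to chr1:171518122-171535294 (minus strand). It had 72.1, 6.51 and 8.28 CPM in BSYQF replicates 1, 2 and 3, 20.5, 55.3 and 3.63 CPM in asthma replicates 1, 2 and 3, and 1.30, 1.52 and 2.45 CPM in control replicates 1, 2 and 3. Its spread was wide, with the highest library 15.2 times the lowest in asthma and 11.1 times in BSYQF. The log2 fold change in asthma was 3.90 ± 1.22 (SE, adjusted p = 0.0655, edgeR), which did not pass. The C57BL/6 reference genome lacks Itln2, a close copy carried by some other strains, so what was counted at Itln1 is uncertain in BALB/c mice.

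**Figure D3:**
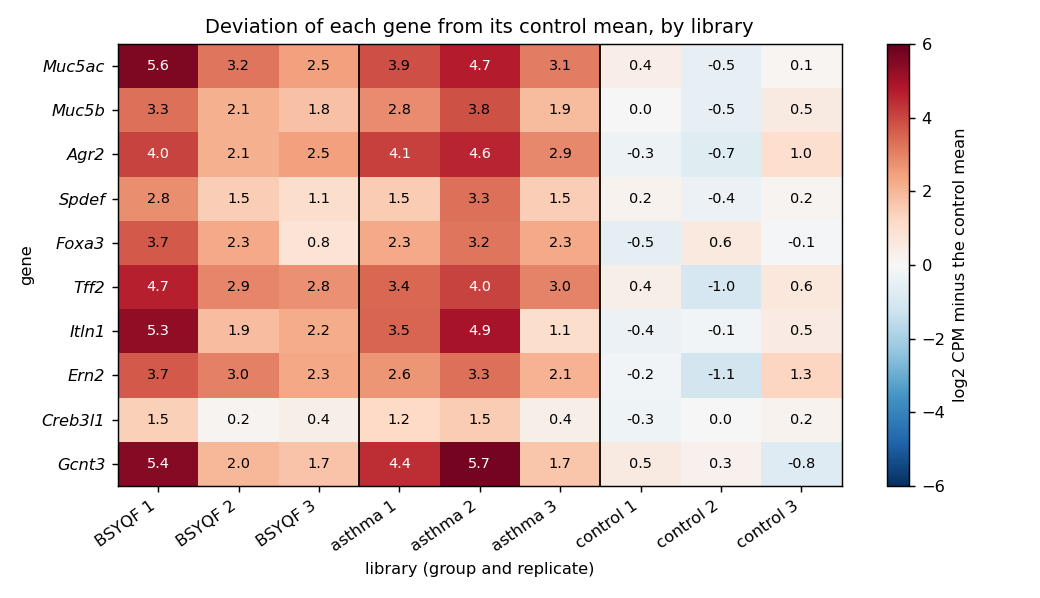
Log2 CPM of each of the 10 genes (rows) minus its mean over the 3 controls, in each library (columns: BSYQF, asthma, control). BSYQF replicate 1 and asthma replicate 2 are the darkest columns, and Creb3l1 is the palest row.

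The 10 genes shared an order of libraries that did not follow the groups. Asthma replicate 2 was highest of the 6 model libraries for 5 genes (Muc5b, Spdef, Agr2, Creb3l1, Gcnt3) and BSYQF replicate 1 for the other 5. These libraries were the top 2 for 9 genes, Agr2 being the exception with asthma replicate 1 in second place. Among all genes tested the same pair was on top for 12.7%, and among the 1213 genes higher in asthma for 18.2%; the pair was picked after its values were seen. Asthma replicate 3 and BSYQF replicate 3 were among the 3 lowest of the 6 for all 10 genes. Averaged over the 10 genes, the log2 level above the control mean was 4.001, 2.12 and 1.79 in BSYQF replicates 1, 2 and 3 and 2.98, 3.91 and 1.97 in asthma replicates 1, 2 and 3. The mt-Co1 shares given above were largest in the same 2 libraries, and their part in this order was not tested.

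Set against BSYQF and asthma together, the controls were lowest: all 6 model libraries exceeded the highest control for 9 of the 10 genes, Creb3l1 being the exception, and for 9.26% of all genes tested. The distance of a model library from the control mean ran from 1.11-fold (Creb3l1, BSYQF replicate 2) to 107-fold (Gcnt3, asthma replicate 2). The Gcnt3 value rests on a control mean of 0.093 CPM, from 3, 2 and 0 counts, so its size is uncertain.

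The comparison of BSYQF with asthma lungs asks what the formula changes in the model. For these genes no difference passed: 0 of 10 were called (edgeR), 0 had an unadjusted p under 0.05, and DESeq2 and limma voom also called 0. Of all genes tested, 0.00678% were called and 7.94% had an unadjusted p under 0.05. The groups overlapped for all 10 genes, where 9.75% of all genes did not overlap. Log2 fold changes were above 0 for Muc5ac, Foxa3, Tff2, Itln1 and Ern2 and below 0 for Muc5b, Agr2, Spdef, Creb3l1 and Gcnt3. They ran from -0.88 ± 0.60 for Agr2 to 0.37 ± 0.65 for Ern2 (SE), with a median of -0.13.

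The intervals were wide, so sizeable changes in either direction fit these libraries. Muc5ac averaged 31.0 ± 35.2 CPM in BSYQF and 24.1 ± 13.3 CPM in asthma (SD, n = 3 each), a fold of 1.29 with a 95% interval of 0.416 to 3.98. For Muc5b the means were 235 ± 140 CPM in BSYQF and 333 ± 209 CPM in asthma, a fold of 0.706 with an interval of 0.319 to 1.56. Agr2, the lowest of the 10, averaged 25.0 ± 18.9 CPM in BSYQF and 46.1 ± 23.8 CPM in asthma, a fold of 0.543 with an interval of 0.214 to 1.38. Creb3l1 had the tightest interval, 0.466 to 1.37. A single library carried the direction of several genes. Without BSYQF replicate 1 the log2 fold change of Muc5ac was -1.16, of Itln1 -1.82 and of Tff2 -0.69, and without asthma replicate 2 that of Muc5b was 0.10 and of Spdef 0.49, with 0 of 10 genes called in each of these fits. Without both asthma replicate 3 and BSYQF replicate 1, 6 of 10 genes were called as lower in BSYQF (Muc5ac, Muc5b, Agr2, Itln1, Creb3l1 and Gcnt3). Of all genes 1744 were then called in either direction, against 1 with every library in. In that fit Muc5ac was at -1.48 (adjusted p = 0.0310, edgeR) and Itln1 at -2.34 (adjusted p = 0.0169). That choice removes the asthma library nearest the controls and the BSYQF library farthest from them, so it sets the groups apart by construction, and without both asthma replicate 2 and BSYQF replicate 1 the count was 0.

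The comparison of BSYQF with control asks whether treated animals of the model still differ from normal ones. Muc5ac rose by 4.43 ± 0.88 (log2, SE, adjusted p = 0.0407, edgeR) and Tff2 by 3.61 ± 0.61 (adjusted p = 0.0245), so 2 of 10 genes were called as higher where 1.63% of all genes were (1.67% in either direction). The other 8 did not pass, with Muc5b at 2.49 ± 0.54 (adjusted p = 0.0574), Agr2 at 2.97 ± 0.67 (adjusted p = 0.0641) and Ern2 at 3.07 ± 0.74 (adjusted p = 0.0698). Spdef stood at 2.0 ± 0.58, Foxa3 at 3.01 ± 0.80, Itln1 at 4.03 ± 1.23 and Gcnt3 at 4.97 ± 1.56 (adjusted p = 0.0932 to 0.163). The summed Gcnt3 counts, 156 in BSYQF and 5 in control, gave a ratio of 32.1 with a 95% counting interval of 13.4 to 100.1. The median was 3.04, and 9 of 10 genes had an unadjusted p under 0.05, as did 15.8% of all genes. The libraries did not overlap for 9 genes, all higher in BSYQF, where 13% of all genes were higher without overlap. Creb3l1 overlapped, at 0.77 ± 0.36 (adjusted p = 0.329). This comparison and that of asthma with control share the 3 control libraries, so their values are not independent. A pass here and not there does not show that BSYQF and asthma differ, and the direct comparison above called 0 of the 10 genes.

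**Figure D4:**
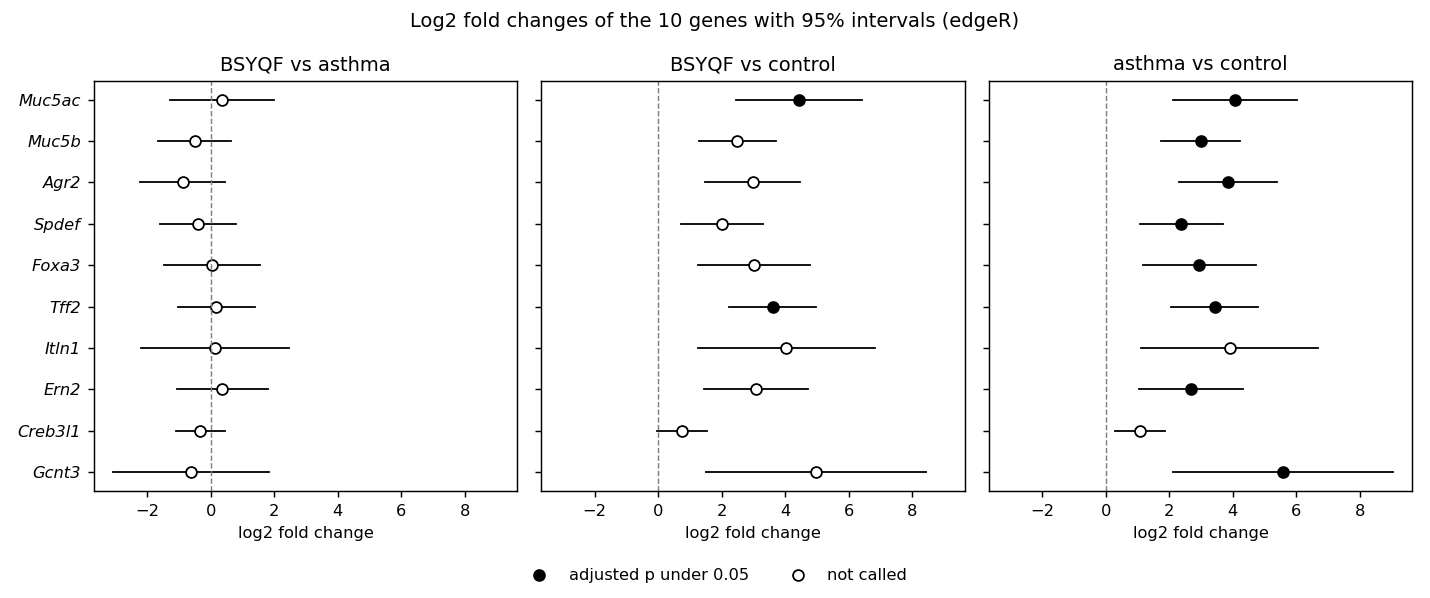
Log2 fold changes of the 10 genes (points) with 95% intervals (lines) for BSYQF against asthma, BSYQF against control and asthma against control, from the edgeR fit of all 9 libraries. Filled points passed an adjusted p under 0.05: 0 of 10, 2 of 10 and 8 of 10 in that order.

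The number of calls depended on single libraries, among the 10 genes and over all genes alike. In asthma against control 8 of the 10 and 1869 of all genes were called with every library in. Without asthma replicate 1 these became 1 of the 10 and 171 of all genes, and without asthma replicate 2 they became 1 and 248. Leaving out control replicate 1 gave 1 and 438, control replicate 2 gave 0 and 182, and control replicate 3 gave 4 and 357. The counts were 5 and 944 without BSYQF replicate 2, 10 and 2646 without BSYQF replicate 1, and 10 and 4262 without asthma replicate 3. The log2 fold changes stayed above 0 in each of these fits, and those of Muc5ac ran from 3.54 to 4.38 over all alternatives tried. DESeq2 called all 10 and 3315 of all genes, and limma voom 3 and 1278. In BSYQF against control, where 2 of the 10 and 246 of all genes were called, the counts became 0 of the 10 without any 1 of the control replicates, with 72, 17 and 9 of all genes without control replicates 1, 2 and 3. They were 1 of the 10 and 146 of all genes without asthma replicate 1, 4 and 271 without BSYQF replicate 3, and 5 and 563 without asthma replicate 3. DESeq2 called 9 of the 10 and 826 of all genes, and limma voom 0 and 90. The authors' deposited table for asthma against control lists all 10 genes with an adjusted p under 0.05. Their table for BSYQF against control lists 8 (not Itln1 and Creb3l1), and that for BSYQF against asthma lists 0. By their names these tables were cut at a log2 fold change of 1 and a p of 0.05. In BSYQF against asthma the edgeR log2 fold changes of the 10 genes ran from -0.88 to 0.37, inside that cut. Creb3l1 was also inside it in BSYQF against control, at 0.77. Itln1 lay outside the cut there by edgeR, at 4.03 (unadjusted p = 0.00962), and why it is not listed was not tested. For the genes inside the cut, absence from these tables is therefore not a separate test.

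On the scale of CPM per kilobase of exon, which allows genes to be ranked within a group, Tff2 was the highest of the 10 in each group, at 90.0 ± 71.3 in BSYQF, 79.5 ± 29.3 in asthma and 7.34 ± 3.69 in control (SD, n = 3). In asthma it was followed by Agr2 (35.7 ± 18.4), Itln1 (23.2 ± 23.1), Muc5b (22.3 ± 13.9) and Creb3l1 (14.9 ± 5.52). Then came Spdef (5.64 ± 4.46), Muc5ac (2.24 ± 1.24), Foxa3 (1.16 ± 0.51), Gcnt3 (1.12 ± 1.11) and Ern2 (0.810 ± 0.363). Tff2 was clear of Agr2 in asthma, and every other pair of neighbours in that order overlapped in range. Within asthma libraries, Agr2 lay above Itln1, Muc5b above Creb3l1, Creb3l1 above Spdef, Spdef above Muc5ac and Muc5ac above Foxa3 in all 3. Itln1 lay above Muc5b in 1 library, Foxa3 above Gcnt3 in 1 and Gcnt3 above Ern2 in 2. In BSYQF the order after Tff2 was Itln1 (25.4 ± 32.7), Agr2 (19.4 ± 14.7), Muc5b (15.7 ± 9.33), Creb3l1 (11.9 ± 6.16), Spdef (4.30 ± 2.92) and Muc5ac (2.88 ± 3.28), and only Creb3l1 and Spdef did not overlap among all neighbours there. Itln1 lay above Agr2 in 1 of the 3 BSYQF libraries. In control lungs Creb3l1 stood second at 6.97 ± 1.19, overlapping with Tff2 and clear of Muc5b at 2.80 ± 1.01. Muc5ac was eighth there at 0.132 ± 0.0423 and overlapped with its neighbours Foxa3 and Ern2.

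Genes whose profile over the 9 libraries lay nearest to these genes were ranked by the root mean square difference of log2 CPM, each gene taken relative to its own control mean, among 13647 candidates averaging at least 1 CPM, with immunoglobulin, T cell receptor and unnamed predicted genes left out. Nearest to Muc5ac were H2-M2, Bcat1, Fcgbp, Mzb1 and Chil3, at differences of 0.555 to 0.664 log2 units. Fcgbp is a secreted partner of mucins, Mzb1 a chaperone of plasma cells and Chil3 a chitinase-like protein of macrophages. Nearest to Muc5b were Col24a1, Tnfrsf8, Mcm10, Ccl22 and Birc5 (0.32 to 0.384), which include genes of cell division (Mcm10, Birc5) and the chemokine Ccl22. Nearest to the mean of the 10 genes were Adra2a, Col24a1, Ccl11, Fcgbp and F10 (0.39 to 0.48). Among the 10 themselves, Tff2 was nearest to Muc5ac (0.489) and Ern2 nearest to Muc5b (0.534). The 2 mucins were 1.08 apart.

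Other genes of mucus production were read from 6 further lists, whose counts stand against 8.23% of all genes called higher in asthma and 1.63% in BSYQF against control. These lists, too, were chosen with earlier results of these data known. Of 13 tested genes of other goblet cell and mucus proteins, 5 rose in asthma and 0 fell: Clca1, a secreted goblet cell protein, at 9.88 ± 1.88, the anion exchanger Slc26a4 at 4.92 ± 0.77, Fcgbp at 3.42 ± 0.96, the antibody transporter Pigr at 2.50 ± 0.27 and Bpifb1 at 2.01 ± 0.57 (log2, SE, adjusted p = 0.00238 to 0.0496, edgeR). In BSYQF against control 4 of the 13 rose: Clca1 (9.86 ± 1.88), Slc26a4 (4.20 ± 0.75), Reg3g, an antimicrobial lectin (2.85 ± 0.54), and Pigr (2.50 ± 0.27). In BSYQF against asthma 0 of 13 were called, with 2 higher at an unadjusted p under 0.05, as were 559 of the 14739 genes tested. Clca1 showed the same uneven libraries as the mucins, with 72294, 6040 and 1705 counts in BSYQF replicates 1, 2 and 3, 21164, 50600 and 6137 in asthma replicates 1, 2 and 3, and 54, 17 and 23 in control replicates 1, 2 and 3.

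The membrane mucins stay anchored at the cell surface. Of 4 tested, Muc4 rose by 1.63 ± 0.30 and Muc1 by 0.91 ± 0.20 in asthma (log2, SE, adjusted p = 0.0120 and 0.0222, edgeR), and in both BSYQF comparisons 0 were called. Among 21 tested enzymes of mucin-type sugar chains, 3 rose in asthma, where 8.23% of all genes did. They were the fucosyltransferase Fut1 at 3.22 ± 0.74, Galnt6, which starts such chains, at 1.33 ± 0.38 and B3gnt3 at 1.10 ± 0.20. Of the 21, 1 fell, the sialyltransferase St3gal2 by 0.79 ± 0.18, where 4.45% of all genes fell. Their median was 0.22, beside 3.21 for the 10 genes, and Fut1 was called in BSYQF against control at 3.61 ± 0.74.

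Of 23 tested genes of airway transcription and type 2 signalling, 2 rose in asthma and 0 fell, close to the 8.23% of all genes that rose. They were the alarmin Il33 at 1.78 ± 0.30 and the epithelial Ets factor Elf3 at 1.27 ± 0.27 (log2, SE, edgeR), and Elf3 was also higher in BSYQF than in control at 1.39 ± 0.27. In BSYQF against asthma 0 of 23 were called, with 1 lower at an unadjusted p under 0.05, as were 612 of the 14739 genes tested. That gene was Il33, at -1.18 ± 0.29 (SE, adjusted p = 0.346, edgeR). Foxa2, a forkhead factor that restrains mucous change in mouse airways and is named after its values were seen, averaged 45.3 ± 3.97 CPM in BSYQF, 42.2 ± 7.10 CPM in asthma and 44.4 ± 2.27 CPM in control. Its log2 fold change in asthma was -0.08 ± 0.15 (SE, adjusted p = 0.752, edgeR). Of 17 tested genes of granule release, 4 rose in asthma. They were the adenosine receptor Adora3 (2.45 ± 0.40), the nucleotide receptor P2ry2 (0.95 ± 0.28), Stxbp2, which primes mucin granule fusion in mouse airways (0.47 ± 0.13), and the granule GTPase Rab27a (0.45 ± 0.13). In both BSYQF comparisons 0 of 17 were called.

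Of 25 tested folding and stress genes of the endoplasmic reticulum, 16 rose in asthma and 0 fell. Among them were Edem1, which helps clear misfolded glycoproteins, at 1.26 ± 0.19, Sdf2l1 at 2.39 ± 0.38, and the disulfide isomerases Pdia6 at 1.19 ± 0.20 and Pdia4 at 1.63 ± 0.27 (log2, SE, adjusted p = 0.00813 to 0.0100, edgeR). In BSYQF against control Edem1 (1.20 ± 0.19) and Sdf2l1 (1.87 ± 0.37) rose, and in BSYQF against asthma 0 of 25 were called, with 9 lower at an unadjusted p under 0.05, as were 612 of the 14739 genes tested. Antibody-secreting cells use the same genes. Their 7 markers summed to 4365 to 4726 CPM in BSYQF, 3415 to 4761 CPM in asthma and 617 to 785 CPM in control. Jchain made up most of that sum in every model library. In asthma 6 of the 7 were called as higher, where 8.23% of all genes were. Xbp1 is on both this list and that of the 25, and counts as called in each. The part of these cells in the folding genes was not tested.

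**Figure D5:**
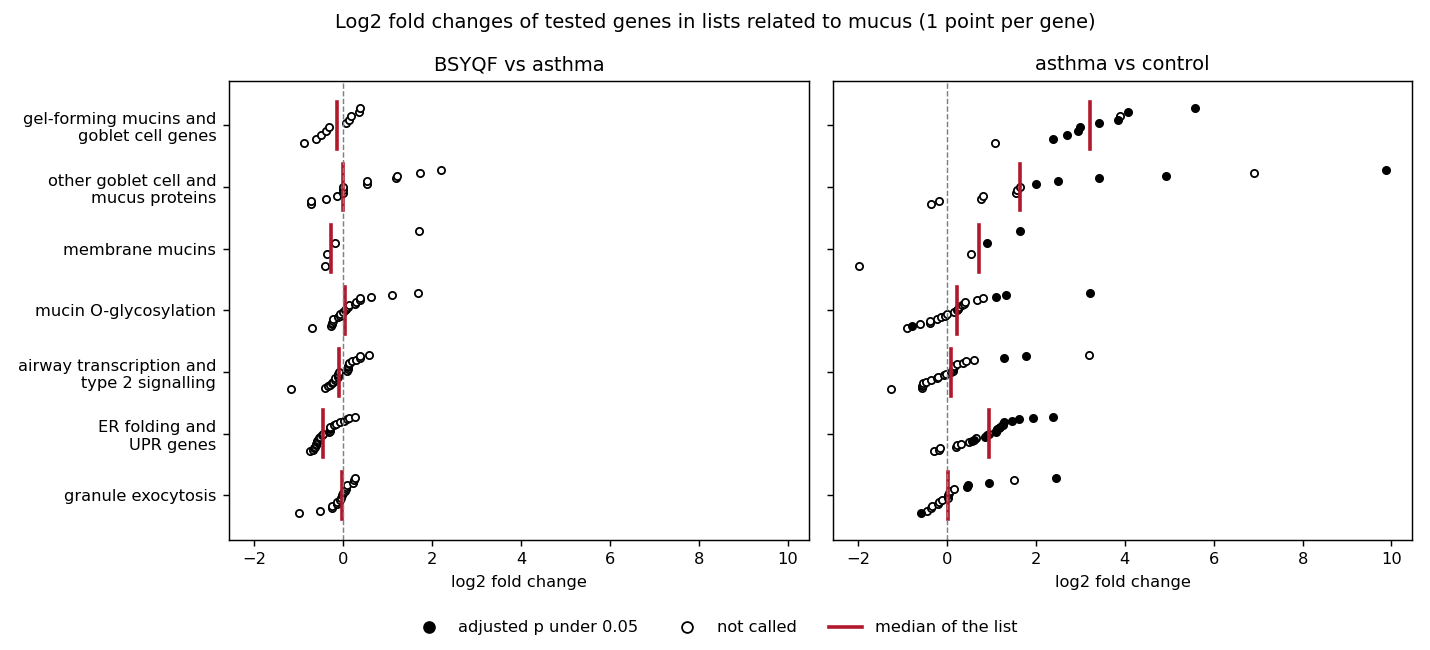
Log2 fold changes of the tested genes in 7 lists (1 point per gene, red bar the median) in BSYQF against asthma and in asthma against control. In asthma the 10 genes have the highest median of these 7 lists, 3.21, and in BSYQF against asthma each of the 7 medians lies between -0.45 and 0.05.

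Of 7 general epithelial markers 1 was called in asthma, where 8.23% of all genes were called higher. It was Epcam at 0.57 ± 0.14 (log2, SE, adjusted p = 0.0299, edgeR). All 7 had a log2 fold change above 0, and 4 had an unadjusted p under 0.05, as did 34.1% of all genes. In BSYQF against asthma 0 of the 7 were called (edgeR). There 0 of the 7 had a log2 fold change above 0, as 7263 of the 14739 genes tested did. Of the 7, 3 were lower at an unadjusted p under 0.05, as were 612 of all genes. The 7 summed to 893 to 1168 CPM in BSYQF, 1167 to 1528 CPM in asthma and 939 to 1074 CPM in control. The 8 club cell markers summed to 38391 to 47110 CPM in BSYQF, 34331 to 57784 CPM in asthma and 30421 to 43226 CPM in control. Scgb1a1 alone made up most of each sum. In asthma 1 of the 8 was called, Hp at 1.08 ± 0.22, and 4 of the 8 had a log2 fold change above 0. Averaged over the 8, the log2 level relative to the control mean was -0.48, 0.27 and 0.40 in asthma replicates 1, 2 and 3. In BSYQF replicates 1, 2 and 3 it was -0.27, 0.27 and 0.10. The 7 markers of stomach epithelium, which also makes Tff2, summed to at most 3.03 CPM in BSYQF, 2.91 CPM in asthma and 4.20 CPM in control, with Gkn3 at a mean of 2.43, 1.42 and 3.68 CPM in BSYQF, asthma and control, and Gkn1 was at 0 counts in all 6 model libraries. The summed level of 5 markers of alternatively activated macrophages was also highest in BSYQF replicate 1 and asthma replicate 2. It was 9347, 1457 and 726 CPM in BSYQF replicates 1, 2 and 3, 5498, 8689 and 2721 CPM in asthma replicates 1, 2 and 3, and 129 to 236 CPM in control. Arg1 was an exception, at 227 CPM in asthma replicate 1, 188 CPM in asthma replicate 2 and 97.3 CPM in BSYQF replicate 1. In asthma 3 of the 5 were called as higher, where 8.23% of all genes were. The part of these cells in the mucin levels was not tested.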

How the data were processed

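Per the labels' protocols, lung RNA isolated with Trizol went into NEBNext Ultra libraries. Tools named in the submitters' processing notes are STAR, HTSeq, cutadapt, FastQC and DESeq2, with mm10 as the build and no version, annotation or strand setting. The file deposited by the authors holds raw counts, whole numbers for each gene in each library. Their deposited comparison tables give log2 fold changes and p-values, per the file headers, and served only to see which members they list; 36 per-library columns in these tables were not used.

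Libraries were grouped by their labels. Counts were filtered with filterByExpr, scaled by TMM and modelled in R 4.3.3 by edgeR 4.0.16 (robust glmQLFit) in 1 model of 3 groups with 9 libraries and no replicate block. A call is an adjusted p (Benjamini-Hochberg) under 0.05. SE is the log2 fold change divided by the square root of F, and 95% intervals use the fit's degrees of freedom. Log2 levels use a prior count of 2, ratios a pseudocount of 0.5. DESeq2 1.42.0 and limma 3.58.1 (voom) were alternatives, with other scaling, filters, left-out libraries and a replicate block. The fits were tested on simulated data. Intervals of summed counts are exact (Clopper-Pearson).

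Named genes are all 10 members, in each other list the called genes with the smallest p in asthma against control (at most 4, or 5 where 5 were called) and those called in a BSYQF comparison, and the 5 nearest profiles; others are marked in the text. The members and lists were chosen with earlier results of these data known. Of 21983 symbols 21896 matched 1 gene of GENCODE vM21 on GRCm38, which gave coordinates (1-based) and exon lengths; no other annotated exon overlaps a member's exons. Promoters are from RefSeq. A further result among the granule release genes is not reported here.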

Additional observations from a re-analysis of the deposited data

How the results depend on the processing

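Every log2 fold change of the 10 genes against control stayed above 0 under all alternatives run, for asthma and for BSYQF; calls were less stable. Main counts of genes called were 1869 (asthma against control), 246 (BSYQF against control) and 1 (BSYQF against asthma), with 8, 2 and 0 of the 10 genes. DESeq2 called 3315, 826 and 123 genes and 10, 9 and 0 of the 10. Limma voom called 1278, 90 and 0 genes and 3, 0 and 0 of the 10. Fitting only the groups compared gave 389 genes for BSYQF against control and 0 for BSYQF against asthma; Gcnt3 did not pass the filter there against control. In BSYQF against control, 1 of the 10 was called with no filter on low counts and 4 with no robust estimation. Without both asthma replicate 3 and BSYQF replicate 1 the counts were 5361, 427 and 1744 genes and 10, 5 and 6 of the 10. Without both asthma replicate 2 and BSYQF replicate 1 they were 540, 115 and 0 genes and 6, 3 and 0 of the 10.

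Leaving out 1 library at a time gave 171 to 4262, 9 to 563 and 0 to 114 genes, and 0 to 10, 0 to 5 and 0 to 0 of the 10. Log2 fold changes of BSYQF against asthma then ran from -1.16 to 0.87 for Muc5ac, -1.09 to 0.10 for Muc5b, -1.08 to 0.49 for Spdef, -0.98 to 0.53 for Foxa3, -0.69 to 0.50 for Tff2, -1.82 to 1.27 for Itln1, -0.038 to 0.77 for Ern2 and -3.02 to 0.49 for Gcnt3. The log2 ratio of Muc5ac to Muc5b ran from -0.15 to 0.66. Other sign changes in BSYQF against asthma were Muc5ac -0.11, Foxa3 -0.36 and Tff2 -0.027 with limma voom. Without asthma replicate 3 and BSYQF replicate 1 they were Muc5ac -1.48, Foxa3 -1.16, Tff2 -0.91, Itln1 -2.34 and Ern2 -0.31. Without asthma replicate 2 and BSYQF replicate 1 they were Muc5ac -0.65, Foxa3 -0.56, Tff2 -0.37 and Itln1 -0.69. Apart from the left-out libraries, the cause was not tested.

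Replicate numbers showed no clear pairing: same-number deviations correlated at -0.259 to 0.339 and different-number deviations at -0.428 to 0.368. With 3 libraries per group these values cannot exclude a pairing. With a replicate block 7, 2 and 0 of the 10 genes and 1469, 237 and 15 genes were called, and in BSYQF against asthma Muc5ac was -0.10, Foxa3 -0.17 and Tff2 -0.052. Scaled by library totals, the median log2 fold change of all genes in asthma against control was -0.08, against 0.02 with TMM. Low control counts limit the size of the change for Gcnt3, Ern2 and Foxa3.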

Other observations

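A few further genes with low counts are named after their values were seen. Tff1, a trefoil peptide related to Tff2, had 174, 12 and 2 counts in BSYQF replicates 1, 2 and 3, 30, 12 and 0 counts in asthma replicates 1, 2 and 3, and 0 counts in each control. It was tested and did not pass in asthma against control (adjusted p = 0.168, edgeR). Muc2, the gel-forming mucin of the intestine, had 0 counts in all 9 libraries, and Tff3 had at most 1 count in any library. Retnlb, a secreted goblet cell protein, had 24, 3 and 0 counts in BSYQF replicates 1, 2 and 3, 68, 56 and 14 counts in asthma replicates 1, 2 and 3, and 1, 0 and 0 counts in control replicates 1, 2 and 3, and was called as higher in asthma than in control (adjusted p = 0.0281, edgeR). Il13, the cytokine that induces Muc5ac, had 16, 2 and 0 counts in BSYQF replicates 1, 2 and 3, 14, 3 and 0 counts in asthma replicates 1, 2 and 3, and 2, 2 and 1 counts in control replicates 1, 2 and 3, and was not tested. A count of 0 in the deposited table does not show that a transcript was absent.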
